A study of Nothobranchius furzeri with 12 samples.

Results

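A set of 6 genes of the chemical synapse was followed through adult life in the retina of the turquoise killifish, Nothobranchius furzeri, a short-lived annual fish. They were slc17a6b, syn1, syp, syt7, unc13b and homer1b, taken as the rows of the count table that carry one of these names or whose NCBI gene symbol is one of them. All 6 were found among 25122 rows, and all 6 were among the 20717 rows with enough counts to be tested. The rows of syp, syt7 and unc13b carry those names in the table itself, and the other 3 carry NCBI locus numbers (LOC107381463 for slc17a6b, LOC107393650 for syn1 and LOC107393910 for homer1b).

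RNA was sequenced from 12 untreated male fish, 3 at each of 4 ages: 1.5 months, 3.0 months, 4.5 months and 6.0 months. The tissue was the retina with its pigment epithelium still attached, freed by dissection of lens, cornea, iris, choroid and sclera. Every fish at every age came from a mutant line backcrossed onto the short-lived GRZ laboratory strain, so no wild-type group stands beside the ages. The labels name neither the mutated gene nor which fish carried it.

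A chemical synapse releases transmitter from vesicles that are loaded, tethered, primed, fused and retrieved in a cycle. Transporters such as slc17a6b load glutamate into the vesicle, synapsins such as syn1 tether vesicles in a reserve, Unc13 proteins such as unc13b prime docked vesicles, and synaptotagmins such as syt7 sense the calcium that triggers fusion. Synaptophysin, the product of syp, is an abundant protein of the vesicle membrane. On the receiving side, Homer proteins such as homer1b link group I metabotropic glutamate receptors to Shank scaffolds. The retina holds conventional synapses of amacrine and ganglion cells as well as ribbon synapses of photoreceptors and bipolar cells. In mammals synapsins are largely missing from ribbon synapses, whereas synaptophysin is present there, and VGLUT2, the mammalian counterpart of slc17a6b, marks ganglion cells.

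The libraries held 34437141 to 50268318 counts, and levels are given as counts per 1000000 of a library (CPM), scaled by edgeR's TMM factors and not divided by gene length, so they compare one gene between fish and not one gene with another. RNA of 3 libraries included that of lens crystallins and related lens genes: the summed lens markers stood at 14700 CPM in 6.0-month fish 1, 1953 CPM in 4.5-month fish 1 and 791.8 CPM in 1.5-month fish 2, against 11.48 to 65.72 CPM in the other 9. Markers of cornea and surface epithelium summed to 5209 CPM in 1.5-month fish 1 and to 79.82 to 810.3 CPM elsewhere. The libraries of 4.5-month fish 2 and 3 have Resub in their names, a word left unexplained by the labels. Fits without 4.5-month fish 1, such as those without the libraries with lens RNA, had only these Resub libraries at 4.5 months. Markers of retinal neurons were present throughout: every tested ganglion, amacrine, bipolar, horizontal, rod and cone marker had counts in every library. The row named rho in the rod list was sparse, at means of 0.624 CPM at 1.5 months to 0.843 CPM at 6.0 months. No list of pigment epithelium markers was read. Mueller glia markers summed to 4422 to 7834 CPM, microglia and macrophage markers to 682 to 2784 CPM, horizontal cell markers to 69.39 to 100.9 CPM and erythrocyte markers to 3.167 to 48.03 CPM.

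**Figure D1:**
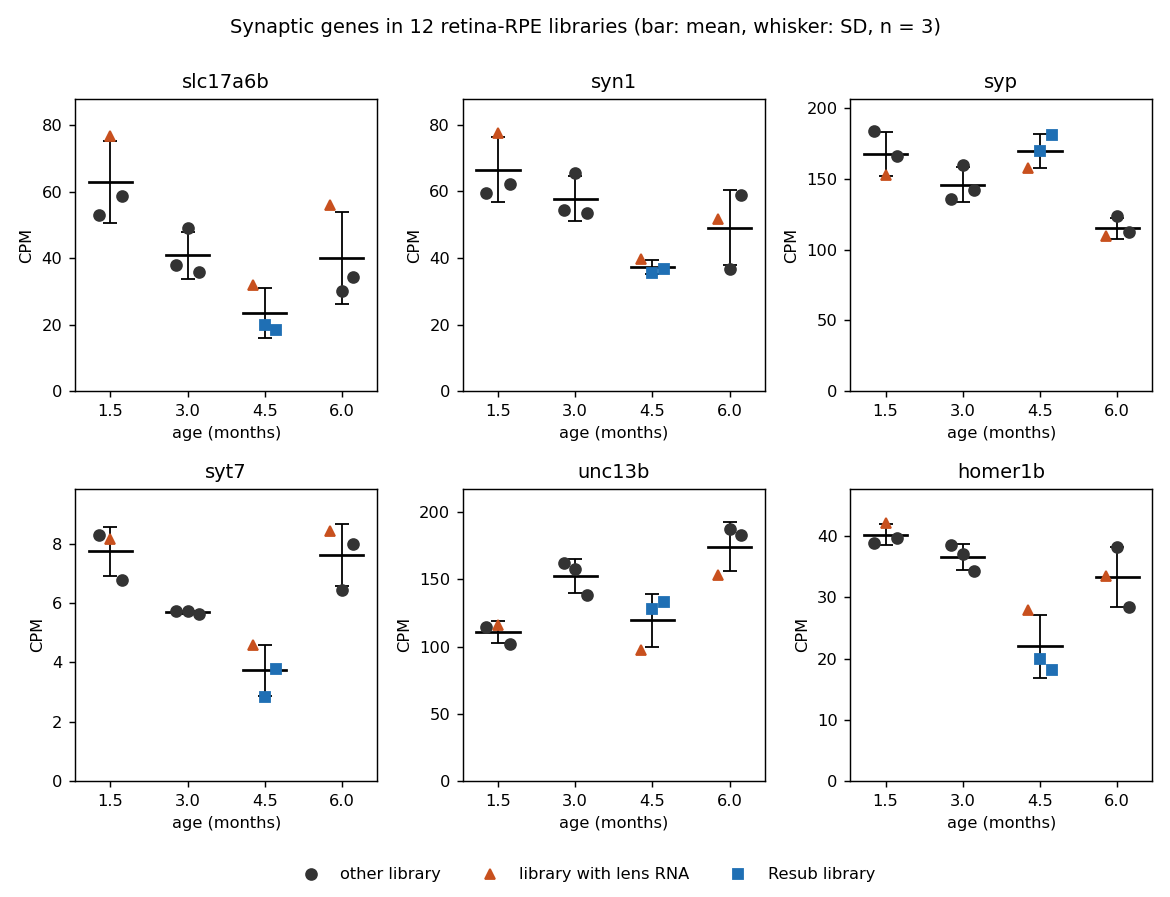
CPM of the 6 genes in each of the 12 fish by age in months, with black bars at the mean of 3 fish and whiskers of 1 SD. Points are shaped by library: triangles for the 3 with lens RNA, squares for the 2 Resub libraries, circles for the rest. For slc17a6b, syn1, syt7 and homer1b the 4.5-month fish all lie below the 1.5-month fish, and for unc13b the 6.0-month fish all lie above the 1.5-month fish.

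The gene for glutamate loading, slc17a6b, had 53, 76.82 and 58.76 CPM in the 3 fish of 1.5 months, 37.82, 49.02 and 35.82 CPM at 3.0 months, 32.01, 19.8 and 18.29 CPM at 4.5 months, and 55.91, 30.23 and 34.21 CPM at 6.0 months. Every 4.5-month fish was below every fish of 1.5 and 3.0 months, while the 6.0-month fish overlapped those of all other ages, with fish 1, the library richest in lens RNA, highest among them. At 4.5 months fish 1 stood above the Resub libraries of fish 2 and 3. The means stood at 62.86 ± 12.4, 40.89 ± 7.11, 23.37 ± 7.53 and 40.12 ± 13.8 CPM (SD, n = 3 each) from the youngest to the oldest age. In order of level the ages ran 1.5, 3.0, 6.0 and 4.5 months, and no pair of neighbours in that order differed past the threshold, an edgeR adjusted p of 0.05 over all 20717 tested genes. At 4.5 months slc17a6b stood at 0.372 times its 1.5-month level, a log2 change of -1.43 ± 0.27 (SE, edgeR adjusted p = 0.0248).

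Synapsin 1, syn1, tethers vesicles to each other and to the cytoskeleton. Its level was 59.61, 77.67 and 62.29 CPM at 1.5 months, 54.46, 65.51 and 53.54 CPM at 3.0 months, 39.8, 35.57 and 36.65 CPM at 4.5 months, and 51.7, 36.69 and 59.03 CPM at 6.0 months. The 4.5-month fish lay close together and below every fish of 1.5 and 3.0 months, and among 6.0-month fish only fish 2 lay within their range. The means were 66.53 ± 9.75, 57.84 ± 6.66, 37.34 ± 2.2 and 49.14 ± 11.4 CPM (SD, n = 3 each), which puts the ages in the same order as for slc17a6b, again with no neighbours that differed past the threshold. The change of syn1 at 4.5 months against 1.5 months was a log2 value of -0.83 ± 0.17 (SE, edgeR adjusted p = 0.0290), or 0.561 times the younger level.

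Synaptophysin, syp, followed another course. It had 183.8, 152.6 and 166.2 CPM at 1.5 months, 135.6, 159.9 and 142.1 CPM at 3.0 months, 157.3, 169.5 and 181.2 CPM at 4.5 months, and 109.5, 123.5 and 112.5 CPM at 6.0 months. The 6.0-month fish were the lowest of all 12 and overlapped no other age, whereas the 3 younger ages overlapped one another. Means of 167.5 ± 15.7, 145.9 ± 12.6, 169.3 ± 11.9 and 115.2 ± 7.41 CPM (SD, n = 3 each) put the ages in the order 4.5, 1.5, 3.0 and 6.0 months, without a difference past the threshold between neighbours. At 6.0 months syp fell to 0.688 times its 1.5-month level, a log2 change of -0.54 ± 0.12 (SE, edgeR adjusted p = 0.0374), and against 4.5 months its log2 change was -0.56 ± 0.12 (SE, edgeR adjusted p = 0.0551), just over the threshold of 0.05.

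The priming gene unc13b encodes Munc13-2, which in mice is found at photoreceptor ribbon synapses. Its level was 114.9, 116.2 and 101.7 CPM at 1.5 months, 162, 157.6 and 138.4 CPM at 3.0 months, 97.32, 127.7 and 133.5 CPM at 4.5 months, and 153.4, 187.4 and 182.8 CPM at 6.0 months. The fish of 6.0 months were all above those of 1.5 and 4.5 months, those of 3.0 months were all above those of 1.5 and 4.5 months, and the 1.5-month and 4.5-month fish overlapped. The means were 110.9 ± 8.05, 152.7 ± 12.5, 119.5 ± 19.4 and 174.5 ± 18.5 CPM (SD, n = 3 each), an order by level of 6.0, 3.0, 4.5 and 1.5 months in which no neighbours differed past the threshold. unc13b rose to 1.57 times its 1.5-month level at 6.0 months, a log2 change of 0.65 ± 0.14 (SE, edgeR adjusted p = 0.0365), and was the only one of the 6 genes that rose at 6.0 months against 1.5 months.

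Synaptotagmin 7, syt7, is a slow, high-affinity calcium sensor known for asynchronous release and vesicle replenishment. It was the most sparsely counted of the 6, with 140 to 396 counts in a library. The levels were 8.3, 8.156 and 6.79 CPM at 1.5 months, 5.722, 5.729 and 5.628 CPM at 3.0 months, 4.573, 2.842 and 3.781 CPM at 4.5 months, and 8.431, 6.434 and 7.997 CPM at 6.0 months. Fish of 1.5 and 6.0 months shared a range, the 3.0-month fish lay below both, and the 4.5-month fish lay below all others. Means of 7.748 ± 0.834, 5.693 ± 0.0564, 3.732 ± 0.867 and 7.62 ± 1.05 CPM (SD, n = 3 each) give the order 1.5, 6.0, 3.0 and 4.5 months, with no difference past the threshold between neighbours. syt7 fell at 4.5 months against 1.5 months, to 0.482 times the younger level (log2 change -1.05 ± 0.19 SE, edgeR adjusted p = 0.0214), and rose at 6.0 months against 4.5 months, to 2.04 times the earlier level (log2 change 1.03 ± 0.19 SE, edgeR adjusted p = 0.0413).

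On the postsynaptic side, homer1b had 38.81, 42.12 and 39.7 CPM at 1.5 months, 38.46, 37.07 and 34.26 CPM at 3.0 months, 27.87, 19.96 and 18.1 CPM at 4.5 months, and 33.41, 38.15 and 28.35 CPM at 6.0 months. Every 4.5-month fish was below every fish of the other ages, and fish 1 of that age stood above the Resub libraries of fish 2 and 3. The means were 40.21 ± 1.71, 36.6 ± 2.14, 21.98 ± 5.19 and 33.3 ± 4.9 CPM (SD, n = 3 each), in the order 1.5, 3.0, 6.0 and 4.5 months, with no neighbours that differed past the threshold. At 4.5 months homer1b fell to 0.546 times its 1.5-month level, a log2 change of -0.87 ± 0.16 (SE, edgeR adjusted p = 0.0218).

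**Figure D2:**
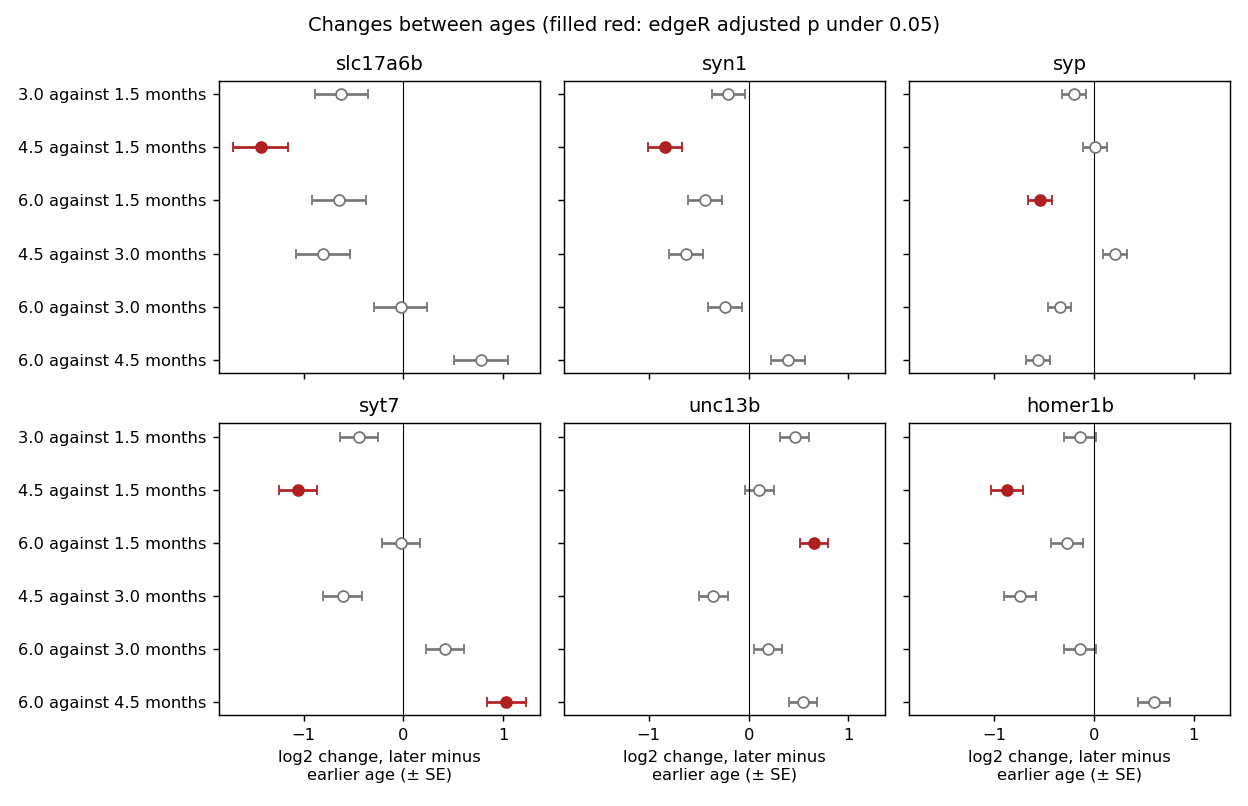
Log2 changes, later minus earlier age, with whiskers of 1 SE, for the 6 genes in all 6 pairs of ages. Filled red points passed an edgeR adjusted p of 0.05 over 20717 genes, as 4 genes did at 4.5 against 1.5 months, 2 at 6.0 against 1.5 months and 1 at 6.0 against 4.5 months.

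Between 4.5 and 1.5 months, slc17a6b, syn1, syt7 and homer1b fell and neither syp nor unc13b passed the test. Thus 4 of 6 genes were called, beside 3.03% of all tested genes, and all 4 fell, beside 1.92% of all genes called lower. In the same 4 genes the fish of the pair of ages did not overlap, as was so for 13.3% of all genes lying lower at 4.5 months. For syp the log2 change was 0.02 ± 0.12 (SE) and for unc13b it was 0.11 ± 0.14 (SE), both with overlapping fish. Calls in the higher direction made up 1.11% of all genes, and 13.1% lay higher without overlap. The 4 falls were lost when the Resub libraries were left out, which leaves 4.5-month fish 1 alone at its age: the log2 changes were then -0.98 for slc17a6b, -0.75 for syn1, -0.77 for syt7 and -0.54 for homer1b, with edgeR adjusted p of 0.391, 0.376, 0.334 and 0.360 in that order, and 1 gene of all those tested was called. Leaving out only 4.5-month fish 2 or only fish 3 also ended all 4, in fits that called 7 and 5 of all genes. Leaving out 1.5-month fish 2 or 3 ended them as well, where 12 and 28 of all genes were called. Without 1.5-month fish 1 only slc17a6b was still called, beside 166 of all genes, against 627 as reported. Without the 3 libraries with lens RNA syn1 alone was lost (log2 change -0.77, edgeR adjusted p = 0.0702), and 1029 of all genes were called. That fit had only the Resub libraries at 4.5 months, so it cannot separate age from whatever sets those libraries apart.

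Summed ganglion and bipolar cell markers were also lower on average at 4.5 months than at 1.5 months. Ganglion cell markers summed to 1920 CPM on average at 4.5 months (2735, 1535 and 1489 CPM in fish 1, 2 and 3), against 3068 CPM at 1.5 months (2383 to 3806 CPM). All 10 tested ganglion markers were below 0 in log2 change, with a median of -0.81, and 1 of them fell, the neuronal RNA-binding gene elavl4 (log2 change -0.86, edgeR adjusted p = 0.0376). Bipolar markers summed to 991.1 CPM at 4.5 months (954.2 to 1028 CPM) against 1529 CPM at 1.5 months (1474 to 1572 CPM), and 2 of 10 fell, both calcium-binding genes: cabp5a (log2 change -1.32, edgeR adjusted p = 0.0130) and cabp5b (log2 change -0.87, edgeR adjusted p = 0.0179). The other 8 bipolar markers had no call and were spread on both sides of 0. Most of the shift in the bipolar sums came from cabp5a, which averaged 310.7 CPM at 4.5 months and 775.1 CPM at 1.5 months. Of 10 amacrine markers 1, the GABA-synthesis gene gad1, rose (log2 change 0.62, edgeR adjusted p = 0.0388), and of 4 horizontal cell markers lhx1 rose (0.74, edgeR adjusted p = 0.0181). Of 9 Mueller glia markers none passed, 8 were below 0 with a median log2 change of -0.38, and they summed to 5644 CPM on average at 4.5 months and to 6496 CPM at 1.5 months. Amacrine markers summed to 2496 to 2937 CPM at 4.5 months and to 2831 to 2982 CPM at 1.5 months. Rod markers summed to 8512 to 12110 CPM at 4.5 months and to 7342 to 10470 CPM at 1.5 months. No rod marker passed, and 11 of 12 were above 0, with a median log2 change of 0.40. No cone marker passed either: 5 of 10 were above 0 and 5 below, with a median of -0.05. The part of these markers in the fall of the 4 genes was not tested, and in bulk tissue fewer cells of a type and less RNA per cell cannot be told apart.

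**Figure D3:**
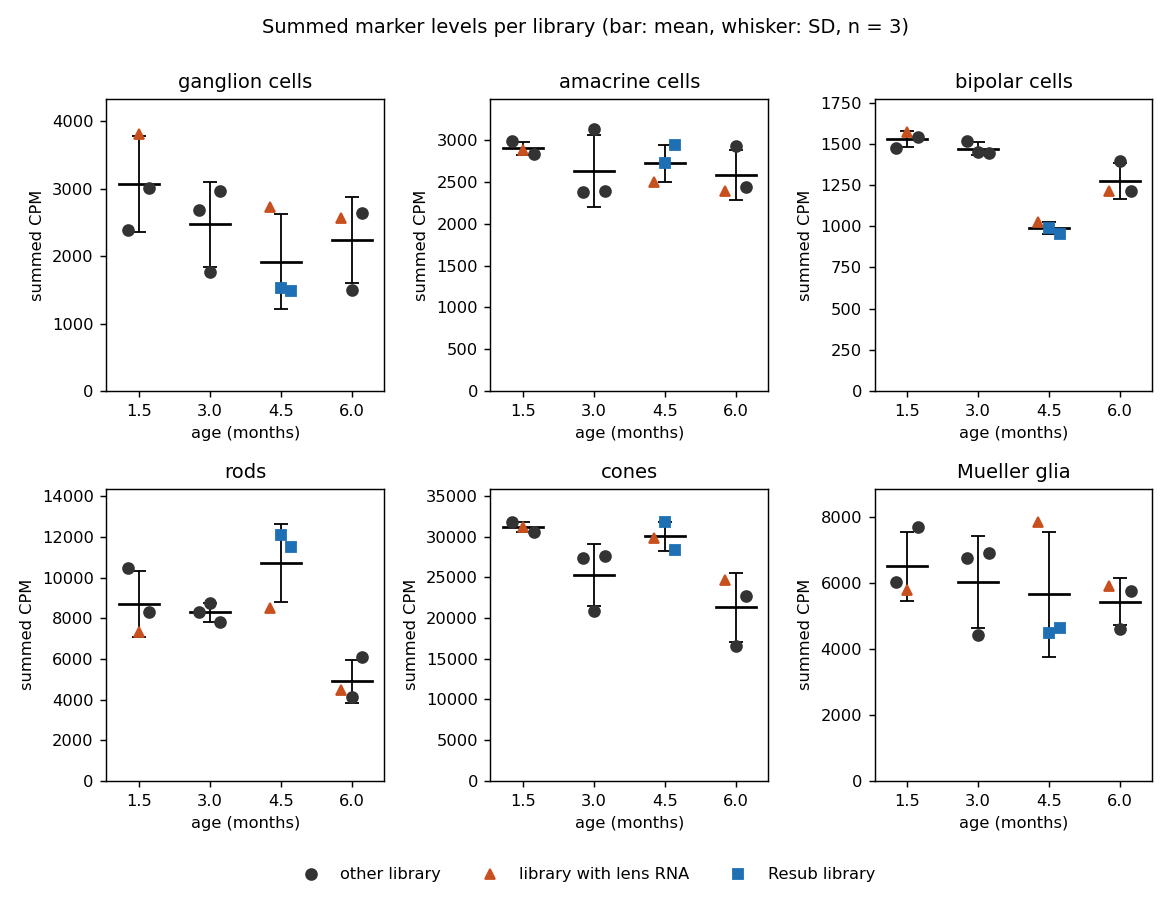
Summed CPM of the tested marker genes of 6 retinal cell types in each of the 12 fish by age in months, with bars at the mean of 3 fish and whiskers of 1 SD. Bipolar sums of the 4.5-month fish (954.2 to 1028 CPM) lie below those of every other fish, and rod sums are lowest at 6.0 months (4138 to 6116 CPM).

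Other genes of the synaptic pathway were read from lists of vesicle and postsynaptic proteins, 159 tested genes beside the 6. At 4.5 against 1.5 months 9 of the 159 fell and 1 rose, or 6.29% called beside 3.03% of all genes. Their median log2 change was -0.16 beside 0.03 over all tested genes. In the largest list, the postsynaptic scaffolds, the median log2 change was -0.24. Of its 38 genes 5 fell, homer1b included, beside 1.92% of all genes called lower. The other 4 were shank3b, a Shank scaffold (log2 change -2.09 ± 0.40 SE, edgeR adjusted p = 0.0243), dlg1, a PDZ scaffold of the SAP97 type (-0.78, edgeR adjusted p = 0.0322), homer3 (-0.61, edgeR adjusted p = 0.0345) and dlgap2, which links Dlg to Shank proteins (-0.65, edgeR adjusted p = 0.0495). Among 11 Homer partners the group I metabotropic receptor grm1b fell (log2 change -1.35, edgeR adjusted p = 0.0445).

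The scaffold gene dlg1 had 324.2, 244.3 and 232.4 CPM in 4.5-month fish, against 469.5, 495.5 and 411.4 CPM in 1.5-month fish. shank3b, a sparsely counted gene, had 0.6826, 0.4873 and 1.148 CPM in 4.5-month fish, against 2.758, 3.128 and 4.019 CPM in 1.5-month fish. For both genes the ages did not overlap, and 18 of the 38 scaffold genes lay lower at 4.5 months without overlap, beside 13.3% of all genes.

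On the presynaptic side, 2 of 9 vesicular transporters fell at 4.5 months, slc17a6b and slc17a8. The gene slc17a8 encodes the glutamate transporter VGLUT3, which in mammals marks a class of amacrine cells, and its log2 change was -1.89 ± 0.27 (SE, edgeR adjusted p = 0.0111). It had 2.275, 1.462 and 1.584 CPM in 4.5-month fish, against 5.224, 8.067 and 6.43 CPM in 1.5-month fish, with no overlap. By contrast slc17a7a, of the VGLUT1 type that photoreceptors and bipolar cells use in mammals, averaged 220.2 CPM at 4.5 months and 244.4 CPM at 1.5 months, without a call (log2 change -0.15, edgeR adjusted p = 0.614).

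Of 4 synapsin genes 1 fell at 4.5 months, syn1 itself, and all 4 were below 0, with a median log2 change of -0.60. Of 19 synaptotagmins 2 fell, syt7 and syt6a (log2 change of syt6a -0.90, edgeR adjusted p = 0.0418). Among 28 priming and SNARE genes stxbp5l, a tomosyn that holds SNARE assembly back, fell (log2 change -0.85, edgeR adjusted p = 0.0290), and cplx4c, of the complexin 4 type found at ribbon synapses in mice, rose (log2 change 0.89, edgeR adjusted p = 0.0348). Of 24 active zone and ribbon genes 1 fell, rims4, a short RIM protein (log2 change -0.71, edgeR adjusted p = 0.0221). None of 18 vesicle membrane genes and none of 14 endocytosis genes passed, with median log2 changes of -0.17 and 0.11. Without the Resub libraries none of the 159 passed at 4.5 against 1.5 months, where 1 gene of all those tested did.

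**Figure D4:**
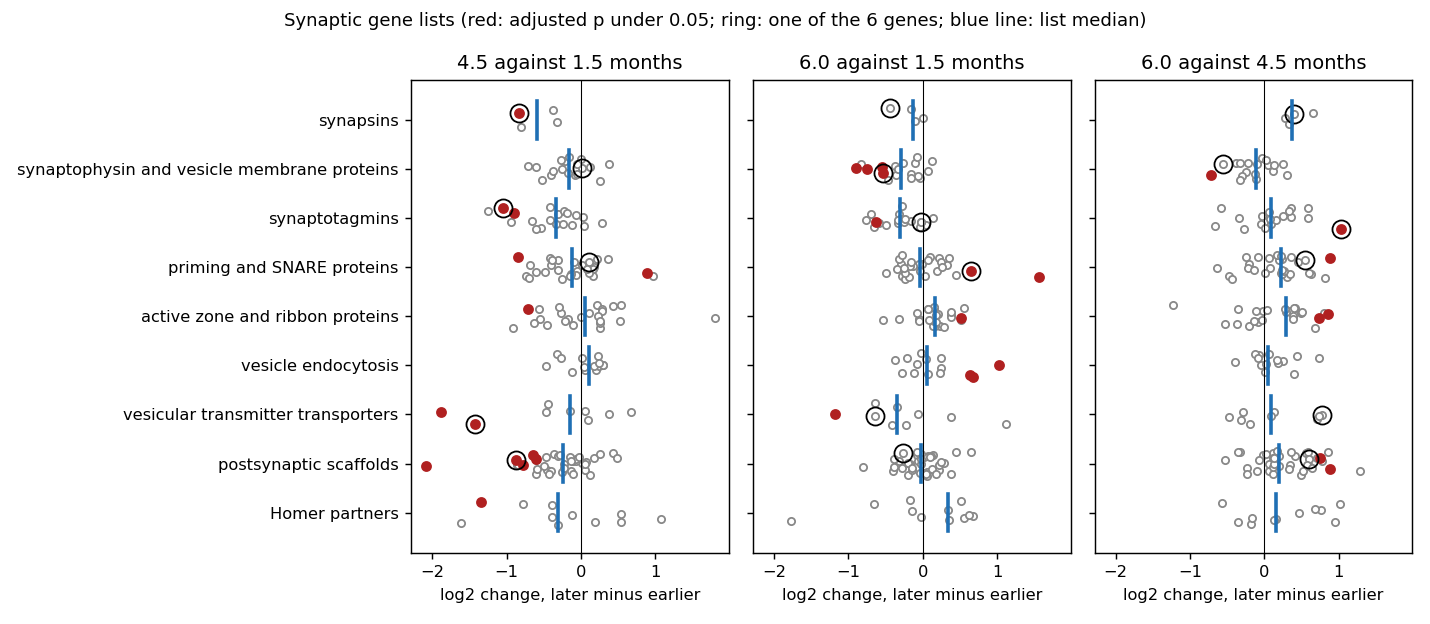
Log2 changes, later minus earlier age, of every tested gene in 9 synaptic gene lists for 3 pairs of ages. Red points passed an edgeR adjusted p of 0.05, rings mark the 6 genes and blue lines the list medians, which for postsynaptic scaffolds were -0.24 at 4.5 against 1.5 months and 0.20 at 6.0 against 4.5 months.

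At 6.0 against 4.5 months 1 of the 6 genes was called, beside 0.599% of all genes. syt7 rose, beside 0.174% of all genes called higher. In 4 of the 6 the fish of these ages did not overlap: syt7, homer1b and unc13b lay higher at 6.0 months and syp lay lower, while syn1 and slc17a6b overlapped. Thus 3 genes lay higher without overlap, beside 9.97% of all genes, and 1 lay lower, beside 11.1%. The log2 changes of the uncalled genes were 0.60 ± 0.16 for homer1b (SE, edgeR adjusted p = 0.0936), 0.55 ± 0.14 for unc13b (SE, edgeR adjusted p = 0.0895), 0.78 ± 0.27 for slc17a6b (SE, edgeR adjusted p = 0.178) and 0.40 ± 0.17 for syn1 (SE, edgeR adjusted p = 0.268). DESeq2 on the same counts called syp, unc13b and homer1b as well as syt7, beside 5.9% of all genes. The rise of syt7 was lost without the Resub libraries (log2 change 0.74) and without the libraries with lens RNA (1.12, edgeR adjusted p = 0.0585). It was also lost in 10 of 12 fits that left out 1 library each. The rise was kept without 3.0-month fish 2 or 4.5-month fish 1, in fits that called 302 and 1137 of all genes, against 124 as reported.

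Cell type markers moved in this step too. Of 12 rod markers 3 fell, rom1a, rom1 and gnat1, and 10 were below 0, with a median log2 change of -0.92. Of 10 cone markers 2 fell, opn1sw and opn1sw2, and all 10 were below 0, with a median of -0.33. Ganglion markers had no call, all 10 were above 0 with a median log2 change of 0.35, and they summed to 1500 to 2638 CPM at 6.0 months and to 1489 to 2735 CPM at 4.5 months. Bipolar markers had no call either, 6 of 10 were above 0, and their sums of 1211 to 1398 CPM at 6.0 months did not overlap the 954.2 to 1028 CPM at 4.5 months. Most of that shift in the sums came from 1 gene, cabp5a, which averaged 582.7 CPM at 6.0 months and 310.7 CPM at 4.5 months. Microglia and macrophage markers had no call, and 13 of 14 were above 0, with a median log2 change of 1.05. The part of these markers in the rise of syt7 was not tested.

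Of the other 159 synaptic genes 5 rose and 1 fell at 6.0 against 4.5 months, or 3.77% called. Of all genes 0.599% were called, 0.174% higher and 0.425% lower. At 6.0 months rims4 rose to 98, 104.4 and 80.71 CPM, against 51.24, 54.23 and 50.82 CPM at 4.5 months (log2 change 0.86, edgeR adjusted p = 0.0213). The RIM-binding gene rimbp2, which ties calcium channels to the active zone, rose by a log2 change of 0.74 (edgeR adjusted p = 0.0260), and stxbp5l by 0.88 (edgeR adjusted p = 0.0485). Among postsynaptic scaffolds and kinases 2 of 38 rose, shank3 (log2 change 0.88, edgeR adjusted p = 0.0493) and the calcium-dependent kinase gene camk2a (0.75, edgeR adjusted p = 0.0492), and 30 of 38 were above 0. The vesicle membrane gene scamp5b fell (log2 change -0.72, edgeR adjusted p = 0.0372). These comparisons share the 4.5-month fish with those against 1.5 months, so the falls and rises around that age rest on the same 3 libraries. Without the Resub libraries none of the 159 passed, as was so for all genes (0 called), and without those holding lens RNA 1 passed, beside 203 of all genes.

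Between 6.0 and 1.5 months syp fell and unc13b rose, 2 of 6 beside 2.78% of all genes, with 1.02% called lower and 1.75% called higher. Both had ages without overlap, as did syn1 and homer1b, which lay lower at 6.0 months without passing the test (log2 changes -0.44 ± 0.17 and -0.27 ± 0.16 SE, edgeR adjusted p = 0.174 and 0.363). In all genes 14.7% lay lower and 15.9% higher without overlap. slc17a6b and syt7 overlapped, with log2 changes of -0.65 ± 0.27 and -0.02 ± 0.19 (SE). Neither call was kept without the libraries holding lens RNA, a fit that called no gene of all those tested in this pair. The log2 changes there were -0.59 for syp (edgeR adjusted p = 0.106) and 0.75 for unc13b (edgeR adjusted p = 0.0687). Each call was kept in 2 of 12 fits that left out 1 library, those without 3.0-month fish 2 or 4.5-month fish 1. These 2 fits called 705 and 1184 of all genes in that order, against 575 as reported. Both calls were kept without the Resub libraries.

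Photoreceptor markers moved beside syp. Rod markers summed to 4905 CPM on average at 6.0 months (4138 to 6116 CPM) against 8707 CPM at 1.5 months (7342 to 10470 CPM), and 2 of 12 fell, the disc rim genes rom1a and rom1, while 4 of 12 lay above 0; the median log2 change of the list was -0.55. Cone markers summed to 16610 to 24720 CPM at 6.0 months against 30570 to 31830 CPM at 1.5 months, and 2 of 10 fell, the short-wavelength opsin genes opn1sw and opn1sw2, with a median log2 change of -0.50 over the list. The largest part of the cone sums was pde6h, a gene without a call, which averaged 10920 CPM at 6.0 months and 15260 CPM at 1.5 months. Ganglion and Mueller glia markers lay lower without a call: all 10 ganglion markers were below 0 (median log2 change -0.46), as were 8 of 9 Mueller glia markers (median -0.26). Of 10 bipolar markers 1 fell, cabp5b (log2 change -0.60, edgeR adjusted p = 0.0496). In that list 6 were below 0 and 4 above, with a median log2 change of -0.07. Bipolar sums of 1211 to 1398 CPM at 6.0 months did not overlap the 1474 to 1572 CPM at 1.5 months. Most of that shift came from cabp5a, without a call in this pair, which averaged 582.7 CPM at 6.0 months and 775.1 CPM at 1.5 months. The part of these markers in the fall of syp was not tested.

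The vesicle membrane list, to which syp belongs, had 16 of 18 genes below 0 at 6.0 against 1.5 months. Its median log2 change was -0.30 beside -0.01 over all genes. It held no rise and 4 falls among 18 genes, beside 1.02% of all genes called lower. Beside syp they were the secretory carrier genes scamp5b and scamp5a and the synaptophysin relative synpr. scamp5b had 125.8, 106.9 and 109.4 CPM in 6.0-month fish, against 226.8, 182.2 and 228.4 CPM in 1.5-month fish (log2 change -0.90, edgeR adjusted p = 0.0165). scamp5a had 115.1, 120.9 and 124.6 CPM in 6.0-month fish, against 201.2, 201.2 and 205.5 CPM in 1.5-month fish (log2 change -0.75, edgeR adjusted p = 0.0317). Neither gene's ages overlapped, and synpr was lower by a log2 change of -0.55 (edgeR adjusted p = 0.0254).

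Of 14 endocytosis genes 3 rose at 6.0 against 1.5 months: the adaptor eps15 (log2 change 0.63, edgeR adjusted p = 0.0230), the dynamin dnm3a (1.03, edgeR adjusted p = 0.0244) and the amphiphysin relative bin1b (0.68, edgeR adjusted p = 0.0404). None fell, 6 of the 14 were below 0, and the list's median log2 change was 0.06. Of all genes 1.75% were called higher at 6.0 against 1.5 months. Beside unc13b, the priming list held a rise of unc13d, a Munc13 known in mammals from granule release by blood cells (log2 change 1.57, edgeR adjusted p = 0.0201). Of 14 microglia and macrophage markers 6 rose and 13 were above 0, with a median log2 change of 1.82. The 6 included the leukocyte gene ptprc (log2 change 1.95, edgeR adjusted p = 0.0273) and the receptor gene csf1r (1.40, edgeR adjusted p = 0.0183). Their sums of 1258 to 2784 CPM at 6.0 months and 1684 to 1953 CPM at 1.5 months were mostly apoeb, a gene without a call that averaged 1683 CPM at 6.0 months and 1665 CPM at 1.5 months; the part of these markers in the rise of unc13d was not tested. The active zone gene rimbp2 rose as well (log2 change 0.52, edgeR adjusted p = 0.0412). The synaptotagmin syt5a (-0.63, edgeR adjusted p = 0.0498) and slc17a8 (-1.18, edgeR adjusted p = 0.0374) fell. Over the 159 genes 5 rose and 5 fell, or 6.29% called beside 2.78% of all genes. Without the libraries holding lens RNA none of them passed, and no gene of all those tested did.

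None of the 6 genes passed in the remaining 3 pairs of ages that share the 3.0-month fish. At 4.5 against 3.0 months 0.319% of all genes were called, and homer1b came nearest, with a log2 change of -0.74 ± 0.16 (SE, edgeR adjusted p = 0.0740). In that step slc17a6b, syn1, syt7, homer1b and unc13b all lay lower at 4.5 months without overlap, beside 9.03% of all genes (9.31% lay higher), and each had an unadjusted p under 0.05, as had 14.7% of all genes. DESeq2 called 2 of them, beside 4.48% of all genes: syn1 (log2 change -0.64, DESeq2 adjusted p = 0.0193) and homer1b (-0.75, DESeq2 adjusted p = 0.00256). In edgeR slc17a6b (log2 change -1.12, adjusted p = 0.0169) and homer1b (-0.95, adjusted p = 0.0212) passed without the libraries holding lens RNA. Both also passed with only 4.5-month fish 1 left out. Those fits called 440 and 795 of all genes in that order, against 66 as reported. In each of them the 4.5-month fish were the Resub libraries only. Without the Resub libraries, with 4.5-month fish 1 alone at its age, the log2 changes were -0.36 for slc17a6b and -0.40 for homer1b. With all 12 libraries in edgeR, 1 of the other 159 synaptic genes passed, rims4, which fell (log2 change -0.79, edgeR adjusted p = 0.0335).

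At 3.0 against 1.5 months 0.0193% of all genes were called by edgeR, and 9.81% lay lower and 11.6% higher without overlap. The largest of the 6 changes were -0.62 ± 0.27 for slc17a6b (log2, SE, edgeR adjusted p = 0.376) and 0.46 ± 0.14 for unc13b (edgeR adjusted p = 0.226), both without overlap, as were syt7 and homer1b, and 3 genes had an unadjusted p under 0.05, as had 12.6% of all genes. At 6.0 against 3.0 months edgeR called 0% of all genes, although 1730 (8.35%) had an unadjusted p under 0.05 and DESeq2 called 206 (0.994%). Of the 6 genes syp (log2 change -0.34 ± 0.12 SE, edgeR adjusted p = 0.464) and syt7 (0.42 ± 0.19 SE, edgeR adjusted p = 0.593) had an unadjusted p under 0.05 there, and DESeq2 called none of the 6. The fish of the pair of ages did not overlap for these genes, syp lower at 6.0 months beside 6.36% of all genes and syt7 higher beside 7.22%.

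Asked as any difference among the 4 ages, syt7 (edgeR adjusted p = 0.0411) and homer1b (edgeR adjusted p = 0.0490) passed, 2 of 6 beside 2.21% of all genes. The other 4 lay between 0.0608 and 0.0654 in edgeR adjusted p, and DESeq2 called all 6, beside 15.4% of all genes. Without the Resub libraries neither passed (edgeR adjusted p = 0.182 for syt7 and 0.280 for homer1b), and without the libraries holding lens RNA syt7 was at 0.0668 while slc17a6b passed (edgeR adjusted p = 0.0212). Leaving out 1 library kept syt7 in 3 of 12 fits, those without 3.0-month fish 2, 4.5-month fish 1 or 6.0-month fish 2. These 3 fits called 547, 2416 and 267 of all genes in that order, against 458 as reported. The call of homer1b was kept in the fit without 4.5-month fish 1. As a steady slope per month none of the 6 passed, beside 1.17% of all genes (0.719% higher and 0.449% lower with age): the slopes ran from -0.17 ± 0.08 log2 per month for slc17a6b (SE, edgeR adjusted p = 0.281) to 0.11 ± 0.04 for unc13b (SE, edgeR adjusted p = 0.212), and 4 had an unadjusted p under 0.05, as had 17.2% of all genes. Of the other 159, scamp5a fell with age (-0.16 log2 per month, edgeR adjusted p = 0.0344) and unc13d rose (0.32 log2 per month, edgeR adjusted p = 0.0308).

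**Figure D5:**
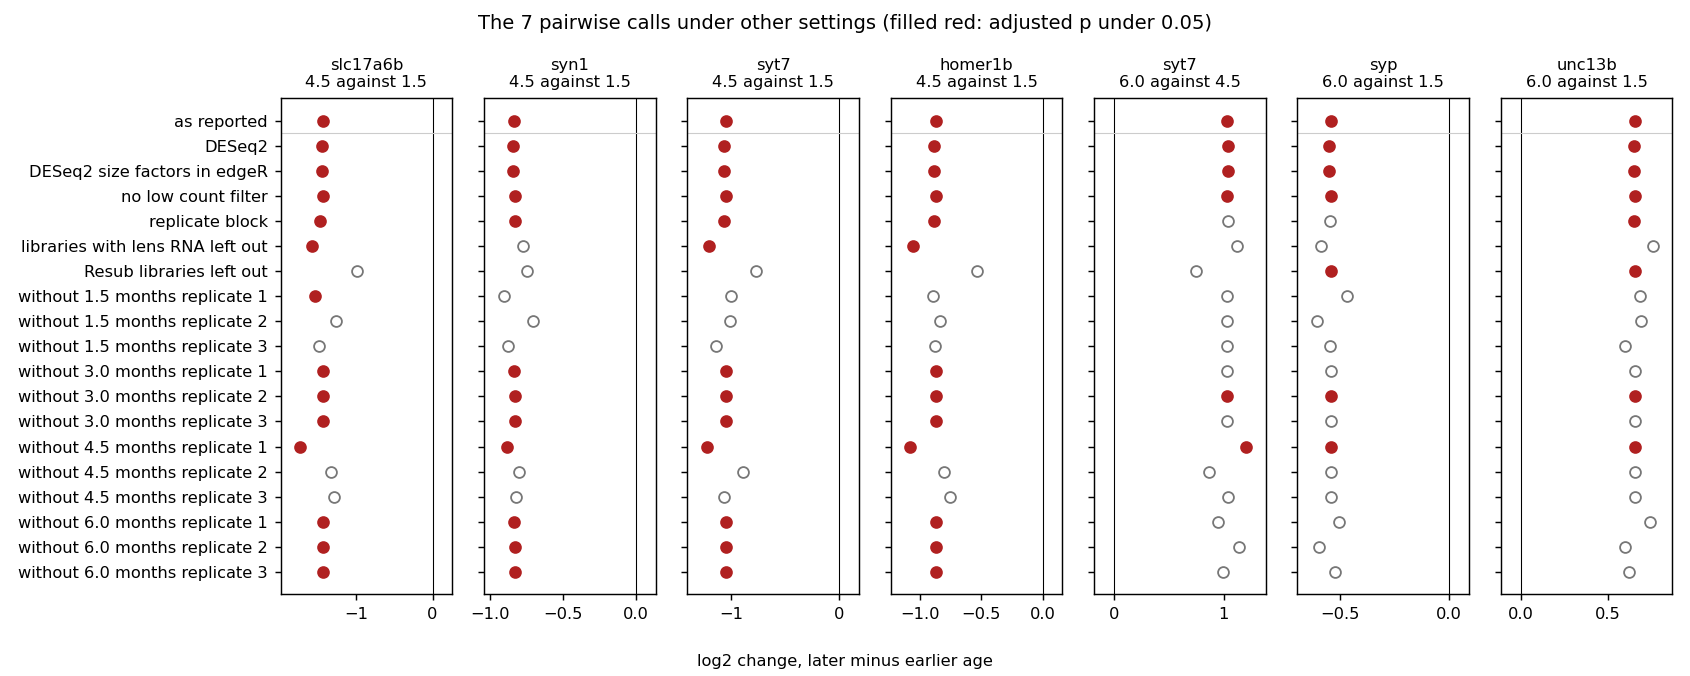
Log2 changes of the 7 called pairs of gene and ages as reported and under 18 other settings, later minus earlier age in months. Filled red points passed an adjusted p of 0.05 and open ones did not; every change kept its sign, and the 4 falls at 4.5 against 1.5 months were open without the Resub libraries.

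Teleost fish carry several copies of many of these genes. Beside homer1b, homer1 averaged 39.76 CPM at 4.5 months and 38.1 CPM at 1.5 months (log2 change 0.06 ± 0.14 SE, edgeR adjusted p = 0.838), and homer2 averaged 35.3 CPM at 4.5 months and 34.88 CPM at 1.5 months (0.02 ± 0.13 SE, edgeR adjusted p = 0.952), so that of the 4 Homer genes homer1b and homer3 fell. The second synaptophysin gene, sypa, had 315.4, 386 and 322.6 CPM in 6.0-month fish, against 462.3, 490 and 459.8 CPM in 1.5-month fish. Those ages did not overlap, and its log2 change of -0.46 ± 0.12 (SE, edgeR adjusted p = 0.0635) did not pass. For syt7a the 4.5-month fish, at 69.13, 77.46 and 87.37 CPM, were below the 1.5-month fish, at 119.2, 121.7 and 115.1 CPM, with a log2 change of -0.61 (edgeR adjusted p = 0.0714).

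The synapsins syn2, syn2a and syn3 had log2 changes of -0.32, -0.38 and -0.81 at 4.5 against 1.5 months, with edgeR adjusted p of 0.277, 0.106 and 0.108 in that order. Among the Munc13 genes unc13a averaged 33.01 CPM at 6.0 months and 26.32 CPM at 1.5 months (log2 change 0.33, edgeR adjusted p = 0.454), and unc13c averaged 193.1 CPM at 6.0 months and 169.7 CPM at 1.5 months, neither of them called. The other VGLUT2 copy, slc17a6, was weakly counted, at 0.3139 to 0.5658 CPM by mean of age. How reads shared by such copies were counted is not given in the sources used here, so levels of close copies are uncertain. The difference in change between a gene and its copy was not tested.

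Across the 12 libraries the 4 genes that fell at 4.5 months varied together. Pearson's r of log2 CPM was 0.873 for slc17a6b with syn1, 0.855 for slc17a6b with homer1b, 0.821 for slc17a6b with syt7, 0.777 for syt7 with homer1b, 0.722 for syn1 with syt7 and 0.711 for syn1 with homer1b. The pair syp and unc13b ran opposite to each other, at -0.691, and the remaining pairs lay between -0.471 and 0.174. These values describe 12 fish whose genes share library, depth, scaling and age. The 4 genes were grouped by their fall in these same libraries, which by itself raises r among them. Whether they vary together within an age was not tested.

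The named genes whose profiles were most like each of the 6, among 11502 with a mean of at least 5 CPM, were ranked by the same r over 12 libraries. For slc17a6b they were nell1 at 0.964, anks1a at 0.960 and tmem163 at 0.959. For syn1 they were anks1a again at 0.957, pgbd5 at 0.952 and si:dkey-183c6.8 at 0.951. anks1a averaged 67.93, 52.49, 32.2 and 49.35 CPM from 1.5 to 6.0 months, lowest at 4.5 months like both genes. For homer1b the nearest were sybu at 0.990, whose product syntabulin links cargo to kinesin in axons, cabp5a at 0.967, one of the bipolar markers above, and the cryptochrome cry1 at 0.962. sybu averaged 209.1, 187.3, 75.38 and 156.2 CPM from the youngest to the oldest fish, and cabp5a 775.1, 740.9, 310.7 and 582.7 CPM.

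For syt7 the nearest were megf11 at 0.936, ptchd1 at 0.932 and slit1 at 0.920. For syp they were lmbrd1 at 0.970, the channel gene hcn3 at 0.967 and rom1a at 0.961, a rim protein of photoreceptor outer segments. rom1a averaged 1218, 1002, 1423 and 520.5 CPM from 1.5 to 6.0 months, lowest at 6.0 months like syp. For unc13b they were fubp1 at 0.955, myo18a at 0.950 and taf1a at 0.935, and fubp1 averaged 225.7, 275.6, 225.2 and 287.5 CPM, higher at 3.0 and 6.0 months than at 1.5 and 4.5 months like unc13b.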

How the data were processed

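RNA of 12 retina and pigment epithelium samples was made into Nextera XT libraries and sequenced paired-end on 1 NovaSeq S4 lane, per the labels' protocols. The authors deposited raw counts per gene; the aligner, the counter, the annotation and the genome build are not given in the sources used here. Of the deposited counts between 1 and 20, 73.16% were even, so read pairs may have been counted as 2, which overstates the depth. A second copy of the count table and the authors' normalized table were not used. Of 14589 rows named by locus number, 5257 took a symbol from the NCBI gene table of assembly NfurGRZ-RIMD1.

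Genes with low counts were removed with edgeR's filterByExpr (at a count of 10 and a total of 15); 20717 genes stayed, with 99.98% of counts, and 751 rows had no count. edgeR 4.0.16 in R 4.3.3 was run with TMM scaling and a robust quasi-likelihood fit of age as a 4-level factor over all 12 libraries, with 8 residual degrees of freedom and a common biological coefficient of variation of 0.306. It gave a test of any difference and 6 contrasts of later minus earlier age; the slope per month of age came from a separate fit. Each SE was derived from the test, as the absolute log2 change divided by the square root of its quasi-likelihood F statistic. The threshold was 0.05 in p adjusted by Benjamini-Hochberg over all tested genes. For a single gene, exact permutation of 3 against 3 fish cannot go below p = 0.1. The code was tested on simulated data that gave every gene the same spread, so that test does not measure the error rate in these libraries.

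The members, gene lists and tests were chosen with earlier results of these data known. Named genes were the 6 members and their paralogs, genes of each list that passed in a comparison (at most 4, taken by adjusted p; dlgap2 was added to complete a count of 5 after its values were seen), and, for each member, 3 named genes of highest correlation of log2 CPM (prior count 2, mean of at least 5 CPM). Marker genes in the text follow the same rule, except apoeb, rho and pde6h, named after their values were seen. Other settings were DESeq2 1.42.0, DESeq2 size factors in edgeR, no low-count filter, the replicate number as a block, leaving out the libraries with lens RNA or the Resub libraries, and leaving out each library. The count of other pathway genes under each setting was added after the data were seen.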

Additional observations from a re-analysis of the deposited data

How the results depend on the processing

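Of 864 values of the 6 genes under the alternatives, 745 kept their direction and their side of the threshold. Most of the 864 were uncalled as reported, and many of the 745 only stayed uncalled. A call was lost in 69 values of the fits without 1 library. Without the libraries holding lens RNA 5 calls were lost, and with the replicate block 4. The fit without the Resub libraries kept only the calls of syp and unc13b at 6.0 against 1.5 months. Every reported call in a comparison that includes 4.5 months was lost there. Among all genes, DESeq2 called 3189 for any difference, 1140 for the slope, 1921 at 6.0 against 1.5 months, 466 at 3.0 against 1.5 months, 928 at 4.5 against 3.0 months, 1222 at 6.0 against 4.5 months, 2112 at 4.5 against 1.5 months and 206 at 6.0 against 3.0 months, against 458, 242, 575, 4, 66, 124, 627 and 0 as reported; why the tools differ was not tested. With DESeq2 size factors in edgeR the count at 4.5 against 3.0 months was 100. The fit without the libraries holding lens RNA had only the Resub libraries at 4.5 months. Its counts were 1 for the slope, 0 at 6.0 against 1.5 months, 0 at 3.0 against 1.5 months, 440 at 4.5 against 3.0 months, 203 at 6.0 against 4.5 months and 1029 at 4.5 against 1.5 months. Without the Resub libraries they were 50 for any difference, 1 at 3.0 against 1.5 months, 4 at 4.5 against 3.0 months, 0 at 6.0 against 4.5 months and 1 at 4.5 against 1.5 months; 4.5-month fish 1 was then alone and was assumed to vary like the other groups. Leaving out 1 library gave 7 to 2416 for any difference, 14 to 334 for the slope, 8 to 1184 at 6.0 against 1.5 months, 0 to 196 at 3.0 against 1.5 months, 2 to 795 at 4.5 against 3.0 months, 0 to 1137 at 6.0 against 4.5 months, 5 to 2841 at 4.5 against 1.5 months and 0 to 1 at 6.0 against 3.0 months. The cause of these shifts was not tested, and some of these fits had fewer fish. Counts of the other 159 synaptic genes under all alternatives lay between 0 and 49.

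The labels do not say that the replicate numbers pair the fish. Over 18 same-numbered pairs the correlation of deviations ran from -0.315 to 0.302, and 8 were over 0.1. Of 12 libraries 4 correlated best with their own number. These values cannot show whether same-numbered fish were handled together. With the number as a replicate block the counts were 214 for any difference, 141 for the slope, 10 at 3.0 against 1.5 months and 47 at 6.0 against 4.5 months. Of the calls of the 6 genes, those of syt7 and homer1b for any difference (edgeR adjusted p = 0.0530 each), of syp at 6.0 against 1.5 months (0.0555) and of syt7 at 6.0 against 4.5 months (0.0607) were not made in that fit. Reversed values were all of uncalled genes. At 4.5 against 1.5 months the log2 change of syp was -0.10 and that of unc13b -0.20 without the Resub libraries, and that of syp -0.014 without the libraries holding lens RNA. Leaving out 1 library moved the log2 change of syp at 4.5 against 1.5 months between -0.048 and 0.087, of syt7 at 6.0 against 1.5 months between -0.11 and 0.081 and of slc17a6b at 6.0 against 3.0 months between -0.34 and 0.14. DESeq2 size factors moved the median log2 change of all genes by less than 0.1. The counts behind syt7 were 140 to 396 in a library.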
